A study of Danio rerio with 4 samples.

Results

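Gene expression in whole zebrafish retina was compared between 4 days post injury (4 dpi) and 12 hours post injury (12 hpi), with uninjured retina as the common baseline of both times. The genes were those annotated with 1 transcript and listed by the authors against uninjured retina at both times, since the 4 dpi values were deposited per gene and the 12 hpi values per transcript. For such genes both values measure the same RNA. There were 94 of them, out of 2119 genes in any table of the series. They made up 14.8% of the 634 single-transcript genes listed at 4 dpi and 32.9% of the 286 listed at 12 hpi. A further 540 single-transcript genes were listed only at 4 dpi and 192 only at 12 hpi, and these are described separately because their level at the other time is not known.

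All fish were wild type and 10 months old, and all were kept under the same day-night cycle at one temperature range. The groups were retina at 4 dpi without drug, retina at 12 hpi without drug, and uninjured retina. A further group, at 4 dpi after the fish had been held for 4 days in 100 µM valproic acid (VPA, a histone deacetylase inhibitor), serves here only as a further reading. The sources used here do not give the kind of injury, the sex and number of fish per library or the hour of collection. The series text speaks of duplicates, but the tables hold 1 value per group, so no difference between 4 dpi and 12 hpi could be tested. Every ratio below is a description of 1 value against another.

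Zebrafish regrow retinal neurons lost to injury. Müller glia, the supporting cells that span the retina, first switch on stress and inflammation genes, then re-enter the cell cycle and give rise to progenitors, while microglia and macrophages clear debris and surviving ganglion cells can regrow their axons. In rough terms, 12 hpi falls in the early stress phase and 4 dpi in the phase of progenitor proliferation.

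Levels are in FPKM (fragments per kilobase, scaled to the number of mapped fragments). The ratio is log2((FPKM at 4 dpi + 0.1) / (FPKM at 12 hpi + 0.1)), so a positive value means higher at 4 dpi and 1 unit is a 2-fold difference. The pseudocount of 0.1 understates differences of genes with low values. Sequencing depth is unknown, because no counts are given. The uninjured FPKM was identical in the 4 dpi and the 12 hpi tables for 94 of 94 genes. As the only error in the files, the authors' log2 fold change against uninjured divided by their test statistic gives a standard error at each time, and these were combined as the square root of the summed squares. This combined SE was available for 73 genes, with a median of 1.2 log2 units (range 1.01 to 2.1). It counts the error of the shared uninjured group at both times. The authors' deposited p-value was above the one a normal distribution gives for the same statistic in 68 of 73 genes at 4 dpi and in 65 of 73 at 12 hpi, so the SE is only approximate. In bulk tissue, fewer cells of a type and less RNA per cell cannot be told apart.

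Most of these genes stood at a similar level at both times. Of 94 genes, 63 were above uninjured at both times, 30 were below at both times, and 1 was below at 4 dpi but above at 12 hpi. The median ratio was -0.06, with quartiles of -0.76 and 0.32 and a range of -4.18 to 5.47. Ratios above 0 were found for 44 genes (46.8%) and below 0 for 49 (52.1%). At least 2-fold higher at 4 dpi were 7 genes (7.45%), at least 2-fold lower were 16 (17%), and the remaining 71 lay within 2-fold. When ratios were centred on their median, 11 genes were past 2-fold in each direction, and with a pseudocount of 1 the count past 2-fold lower was 10. The ratio exceeded 1 combined SE in 7 of 73 genes and 2 combined SE in 1. Genes next to the 2-fold line were *aanat2* at 0.997, *txnipa* at 0.99 and *nr2e3* at -0.96 on the inner side, and *si:ch211-264g8.3* at -1.01 and *crybb3* at -1.03 on the outer side. All 94 genes had to pass the authors' filter against the same uninjured retina at both times, which limits how far apart the 2 levels of a gene can lie.

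**Figure D1:**
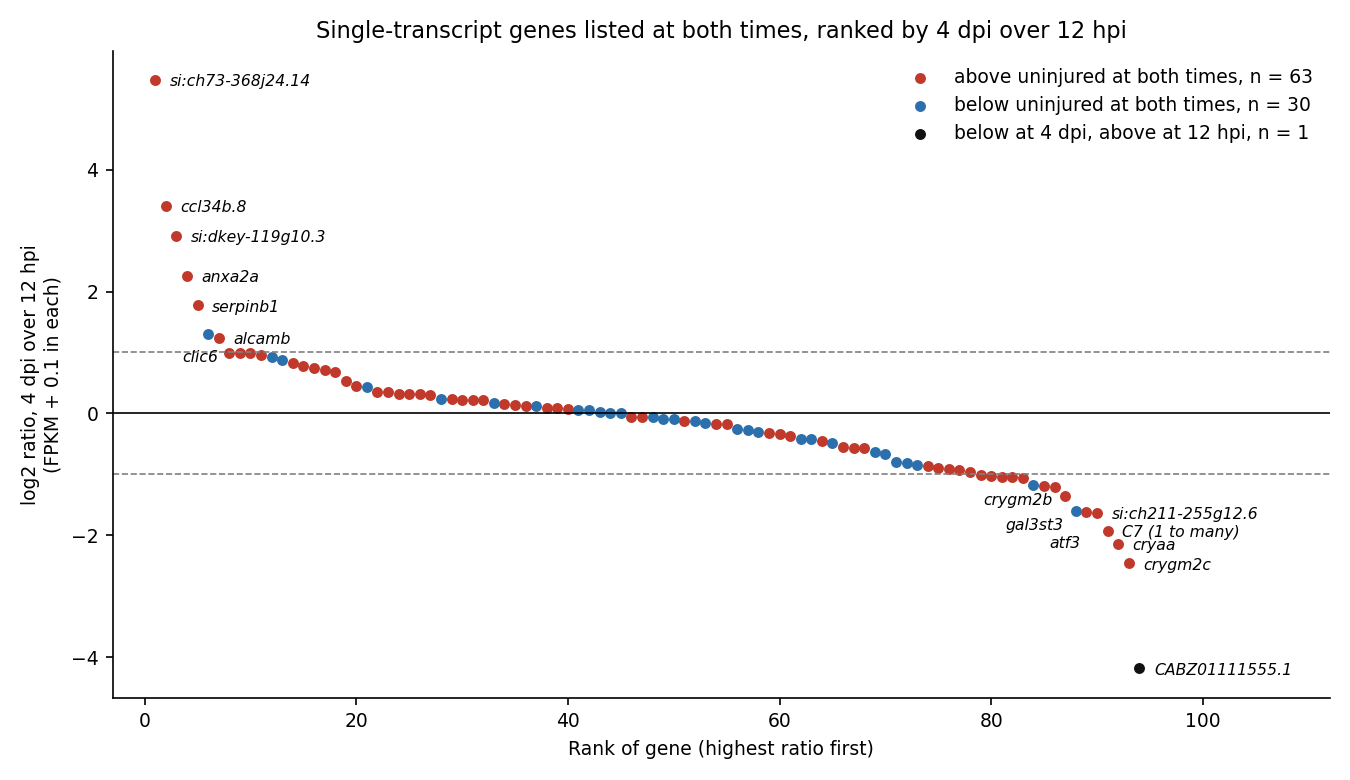
Each point is 1 of the 94 genes, ranked from the highest to the lowest log2 ratio of 4 dpi over 12 hpi (y axis, FPKM + 0.1). Dashed lines mark a 2-fold difference in either direction, colours give the direction against uninjured retina, and most points lie between the dashed lines, with 7 above and 16 below.

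The largest ratio belonged to a small gene inside a histone gene cluster. *si:ch73-368j24.14* was at 59.9 FPKM at 4 dpi, against 1.26 FPKM at 12 hpi, and was listed at 0 in uninjured retina (ratio 5.47). Its locus covers 470 bases, on chromosome 7 from 6226174 to 6226643 of GRCz10, on the minus strand. The files give it no protein name, and none is assigned here. Within 120 kb on either side, 18 other single-transcript genes were listed at 4 dpi and 0 at 12 hpi. Over all listed single-transcript genes, 65.4% were at 4 dpi only, and 408 of the 634 listed at 4 dpi were above uninjured retina. Of these 18 genes, 17 were above uninjured retina, at 21.5 to 212 FPKM at 4 dpi, against 0.264 to 30.7 FPKM in uninjured retina. Histones, the proteins around which DNA is wound, are made in bulk when cells copy their DNA, and 8 of the 18 neighbours carried a histone symbol. One of them, *HIST1H4A*, was at 134 FPKM at 4 dpi, against 11.09 FPKM in uninjured retina. The exception was *si:ch73-368j24.16*, listed at 0 FPKM at 4 dpi, against 2.04 FPKM in uninjured retina.

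Across the genome, 22 single-transcript genes with a histone symbol or protein name were listed at 4 dpi, all 22 above uninjured retina, and 0 were listed at 12 hpi. These counts stand beside the same shares, 65.4% at 4 dpi only and 408 of 634 above uninjured retina. The median of the 22 histone genes was 96.5 FPKM at 4 dpi, against 5.74 FPKM in uninjured retina. With VPA, 8 of the 22 were listed, at 8.29 to 56.6 FPKM, and *si:ch73-368j24.14* itself was at 10.8 FPKM. Of all 345 single-transcript genes above uninjured retina at 4 dpi only, 157 were also listed above it with VPA. These histone genes were picked out after their values were seen, and many are near-identical copies, between which the authors' counting could move reads. Many of their loci are also short, such as 406 bases for *HIST1H4A*, and FPKM of short RNAs is sensitive to fragment size selection.

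Stress transcription factors switch genes on within hours of cell damage. Of the 8 listed genes on their list, 4 were matched and were above uninjured retina at both times, 3 were below it at 4 dpi only, and 1 was above it at 12 hpi only. Over all listed single-transcript genes, 65.4% were at 4 dpi only and 23.2% at 12 hpi only. *atf3*, a factor induced by nerve injury, was at 26.6 FPKM at 4 dpi, against 81.8 FPKM at 12 hpi and 0.952 FPKM in uninjured retina. Its ratio was -1.62 (combined SE 1.38), and its locus lies on chromosome 20 from 37891754 to 37897858. *atf5a*, a relative that acts in the response to misfolded protein in mitochondria in mammals, was at 25.9 FPKM at 4 dpi, against 60.0 FPKM at 12 hpi and 8.99 FPKM in uninjured retina (ratio -1.21, combined SE 1.05). *junbb*, which encodes a subunit of the AP-1 factor, was at 65.4 FPKM at 4 dpi, against 123 FPKM at 12 hpi and 12.8 FPKM in uninjured retina (ratio -0.91). *cebpb*, which drives acute phase genes, was at 14.1 FPKM at 4 dpi, against 26.3 FPKM at 12 hpi and 0.861 FPKM in uninjured retina (ratio -0.90). In all 4 genes the 4 dpi value lay between those of the other 2 groups, from 2.88-fold above uninjured retina in *atf5a* to 27.9-fold in *atf3*. *trib3*, a pseudokinase of the stress response, differed from them, with 15.17 FPKM at 4 dpi, against 13.1 FPKM at 12 hpi (ratio 0.21). Of the 4 matched members of the list, to which *atf5a* does not belong, 3 had ratios below 0, beside 52.1% of all matched genes, and 1 was past 2-fold lower, beside 17%. Their median was -0.90, beside -0.06 over all matched genes. The 3 members below uninjured retina at 4 dpi only were *egr1*, *npas4a* and *klf9*, of which *klf9* was at 3.88 FPKM at 4 dpi, against 14.9 FPKM in uninjured retina. The 1 listed at 12 hpi only was *cebpd*, at 16.3 FPKM, against 2.58 FPKM in uninjured retina.

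Some other regulators, chosen after their values were seen, were also lower at 4 dpi, while the transcription factor gene *sall1b* had a ratio of 0.44. *myclb*, an L-Myc gene, was at 30.1 FPKM at 4 dpi, against 54.8 FPKM at 12 hpi and 6.22 FPKM in uninjured retina (ratio -0.86). *pprc1*, a coactivator of mitochondrial genes, was at 5.1 FPKM at 4 dpi, against 10.6 FPKM at 12 hpi (ratio -1.04). *SBNO2 (1 to many)* was at 9.17 FPKM at 4 dpi, against 17.5 FPKM at 12 hpi (ratio -0.92). None of these ratios exceeded its combined SE. The RNA decay genes *zfp36l1a* and *ZFP36*, which shorten the life of inflammatory messages in mammals, did not share the direction. *zfp36l1a* was at 59.6 FPKM at 4 dpi, against 34.8 FPKM at 12 hpi (ratio 0.77), and *ZFP36* was at 11.4 FPKM at 4 dpi, against 10.7 FPKM at 12 hpi (ratio 0.08).

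**Figure D2:**
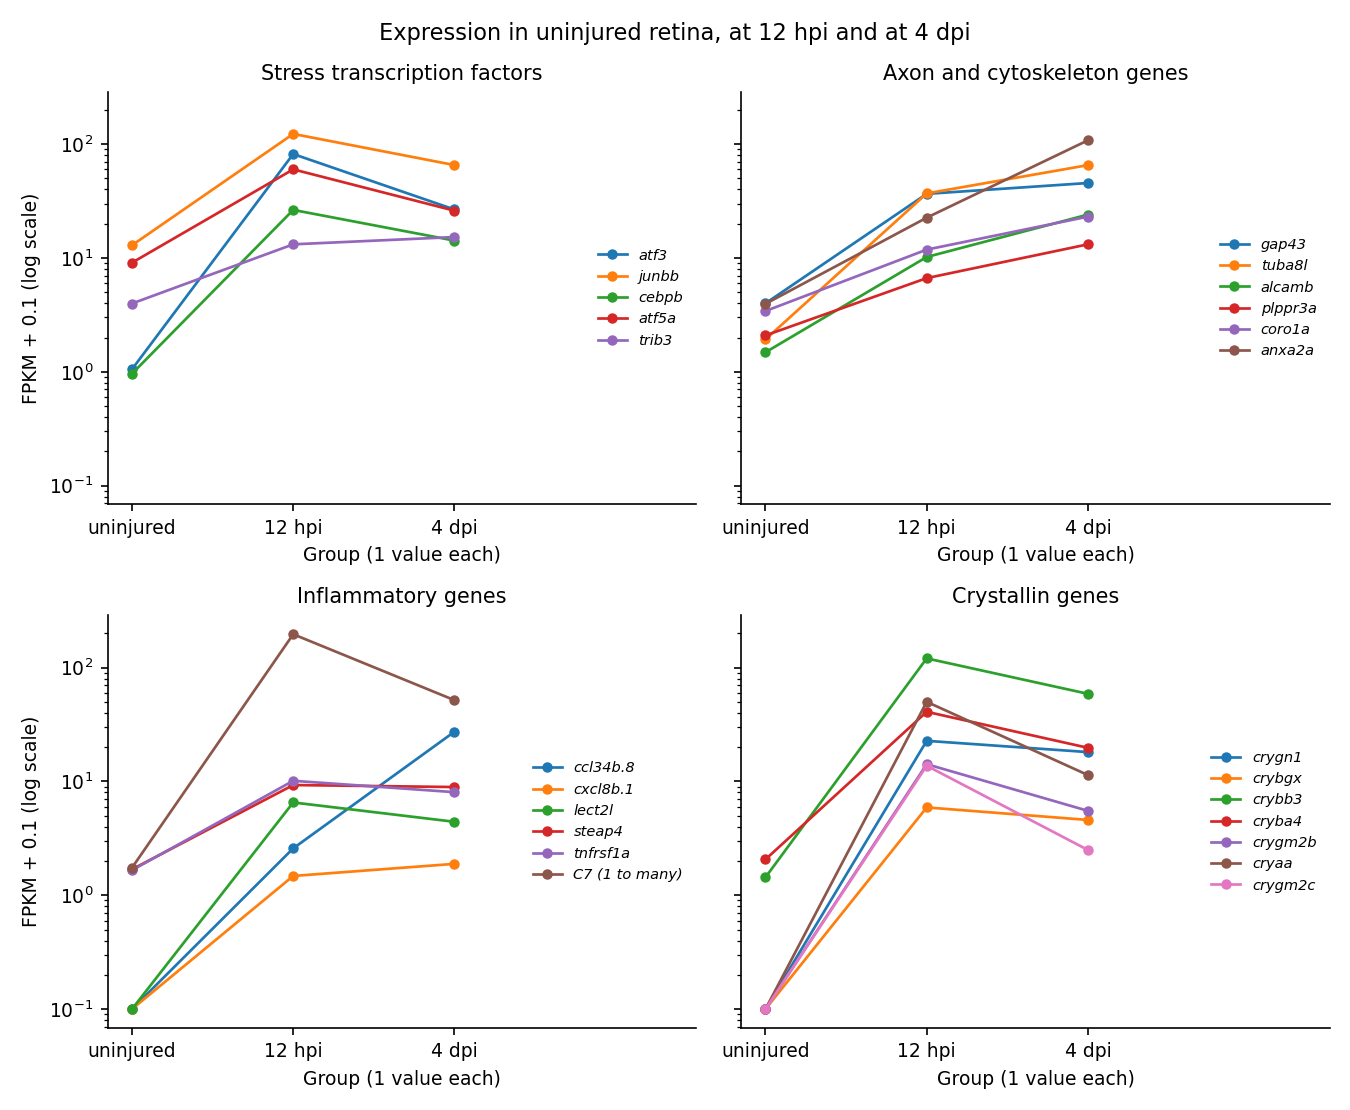
FPKM + 0.1 (log scale) in uninjured retina, at 12 hpi and at 4 dpi, 1 value per group, for 4 groups of genes above uninjured retina at both times, put together after their values were seen. The stress factors other than *trib3* and all 7 crystallins are lower at 4 dpi than at 12 hpi, and the inflammatory genes go either way. The axon and cytoskeleton genes shown are higher, but this panel was picked by hand and its shared direction follows from the choice. It takes in genes of other lists or of none, and the axon list member *atf3* (ratio -1.62) is drawn with the stress factors.

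Inflammatory genes went in both directions. *ccl34b.8*, a chemokine gene, was at 27.25 FPKM at 4 dpi, against 2.48 FPKM at 12 hpi, and was listed at 0 in uninjured retina (ratio 3.40). It reached 63.3 FPKM with VPA. *C7 (1 to many)*, named *c7b* in the reference table and encoding a late complement component, showed the opposite order, with 51.7 FPKM at 4 dpi, against 196 FPKM at 12 hpi and 1.64 FPKM in uninjured retina. Its ratio was -1.92, within its combined SE of 2.1, and its value with VPA was 144 FPKM. *lect2l*, a leukocyte chemotaxis gene and neutrophil marker, was at 4.32 FPKM at 4 dpi, against 6.44 FPKM at 12 hpi (ratio -0.56). *cxcl8b.1*, an interleukin 8 gene that draws neutrophils, was at 1.79 FPKM at 4 dpi, against 1.38 FPKM at 12 hpi (ratio 0.35). The receptor gene *tnfrsf1a* was at 7.95 FPKM at 4 dpi, against 10.0 FPKM at 12 hpi (ratio -0.33), and *steap4*, a metalloreductase gene, was at 8.83 FPKM at 4 dpi, against 9.20 FPKM at 12 hpi (ratio -0.06). The list of chemokines and inflammatory signalling had 4 matched genes with a median of 0.15, of which 1 was past 2-fold higher, beside 7.45% of all matched genes.

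The matched genes of the macrophage and microglia list were few, and all 3 had ratios above 0, beside 46.8% of all matched genes. Their median was 0.33, the value of *tspan36*, and none was past 2-fold. Being on the list does not show that the RNA of *tspan36* or *cd63* came from these cells. *coro1a*, an actin regulator of white blood cells, was at 23.0 FPKM at 4 dpi, against 11.7 FPKM at 12 hpi and 3.32 FPKM in uninjured retina (ratio 0.96). *tspan36* was at 32.7 FPKM at 4 dpi, against 26.1 FPKM at 12 hpi (ratio 0.33). *cd63*, a tetraspanin of lysosomes, was at 76.8 FPKM at 4 dpi, against 72.7 FPKM at 12 hpi (ratio 0.08). *serpinb1*, which in mammals inhibits proteases of neutrophils, was higher, at 31.4 FPKM at 4 dpi, against 9.09 FPKM at 12 hpi and 1.18 FPKM in uninjured retina (ratio 1.77, combined SE 1.66).

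On the axon list, 3 of 4 matched genes had ratios above 0, beside 46.8% of all matched genes, and the median was 0.57. 1 of them was past 2-fold higher and 1 past 2-fold lower. On the matrix list the 1 matched gene was *anxa2a*. *anxa2a*, an annexin that binds membranes in the presence of calcium, was at 108 FPKM at 4 dpi, against 22.5 FPKM at 12 hpi and 3.85 FPKM in uninjured retina. Its ratio of 2.26 exceeded its combined SE of 1.24. Against uninjured retina, its q-value in the authors' deposited table was 0.0421 at 4 dpi and 0.997 at 12 hpi. These q-values do not test the difference between the times. *alcamb*, a gene of the ALCAM family of cell adhesion molecules, was at 23.9 FPKM at 4 dpi, against 10.1 FPKM at 12 hpi and 1.38 FPKM in uninjured retina (ratio 1.24, combined SE 1.39). *plppr3a*, a membrane protein gene of neurons that is on no list, was at 13.1 FPKM at 4 dpi, against 6.55 FPKM at 12 hpi (ratio 0.99). *tuba8l*, an alpha tubulin gene, was at 65.3 FPKM at 4 dpi, against 36.8 FPKM at 12 hpi and 1.82 FPKM in uninjured retina (ratio 0.83). *gap43*, the classic growth cone gene, was at 45.5 FPKM at 4 dpi, against 36.5 FPKM at 12 hpi and 3.89 FPKM in uninjured retina (ratio 0.32). It lies on an unplaced scaffold, KN150239.1. The ratios of *alcamb*, *tuba8l* and *gap43* lay within their combined SE. The 1 axon list member with a negative ratio was *atf3*, which is also a stress factor.

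A receptor and a pair of surface proteins, chosen after their values were seen, lay within 2-fold. *met*, the hepatocyte growth factor receptor gene, was at 3.84 FPKM at 4 dpi, against 4.33 FPKM at 12 hpi and 0.191 FPKM in uninjured retina (ratio -0.17). *itgb1b*, an integrin beta gene, was at 37.9 FPKM at 4 dpi, against 29.8 FPKM at 12 hpi (ratio 0.35). *sdc4*, a syndecan gene, was at 24.9 FPKM at 4 dpi, against 36.7 FPKM at 12 hpi (ratio -0.56). All 3 were above uninjured retina at both times.

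*fabp11a*, a fatty acid binding protein gene on the Müller glia and lipid lists, was among the genes furthest above uninjured retina. It was at 135 FPKM at 4 dpi, against 93.6 FPKM at 12 hpi and 1.54 FPKM in uninjured retina (ratio 0.53, combined SE 1.67), and at 792 FPKM with VPA. *srebf1*, the master regulator of fatty acid synthesis, was below uninjured retina to much the same extent at both times, with 16.1 FPKM at 4 dpi, against 17.2 FPKM at 12 hpi and 54.6 FPKM in uninjured retina (ratio -0.10). *zgc:198419*, annotated as a ferritin and so an iron store, was at 19.96 FPKM at 4 dpi, against 12.1 FPKM at 12 hpi and 1.19 FPKM in uninjured retina (ratio 0.71).

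Photoreceptor and clock genes were represented by 1 gene each. *nr2e3*, the nuclear receptor that fixes rod identity, was at 37.2 FPKM at 4 dpi, against 72.3 FPKM at 12 hpi and 11.9 FPKM in uninjured retina (ratio -0.96). *aanat2*, the enzyme that makes the precursor of melatonin and cycles over the day, was at 141 FPKM at 4 dpi, against 70.8 FPKM at 12 hpi and 26.8 FPKM in uninjured retina (ratio 0.997). *txnipa*, a thioredoxin inhibitor gene that responds to glucose in mammals, was at 59.6 FPKM at 4 dpi, against 29.9 FPKM at 12 hpi (ratio 0.99). The peptide hormone gene *pyya* was at 8.62 FPKM at 4 dpi, against 17.8 FPKM at 12 hpi (ratio -1.04).

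The 30 genes below uninjured retina at both times were at similar shares of their baseline at the 2 times. Their median was 23.9% of the uninjured FPKM at 4 dpi and 26.1% at 12 hpi. Of the 30 ratios, 27 lay within 2-fold, with a median ratio of -0.11. Each gene had to pass the authors' filter below the same uninjured value at both times. That selection keeps both shares low and limits how far apart they can lie. The level closest between times among the abundant genes was that of *CABZ01102076.1*, at 15.5 FPKM at 4 dpi and 15.5 FPKM at 12 hpi, against 52.2 FPKM in uninjured retina. *esrrd*, an estrogen-related receptor gene and the most abundant of the 30 in uninjured retina, was at 89.3 FPKM at 4 dpi, against 85.6 FPKM at 12 hpi and 344 FPKM in uninjured retina. *TMEM63B* and *si:ch211-161c3.5* were also among the 6 ratios nearest to 0, at 0.06 and 0.02. From the genes above uninjured retina, *gna12a* and *steap4* completed these 6, both at -0.06 (-0.055 and -0.058 before rounding).

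A few of the 30 genes departed from this. *clic6*, a chloride intracellular channel gene, was at 11.3 FPKM at 4 dpi, against 4.57 FPKM at 12 hpi and 45.6 FPKM in uninjured retina. That was 24.9% of the uninjured value at 4 dpi and 10.0% at 12 hpi (ratio 1.3, combined SE 1.31). *RAP1GDS1 (1 to many)*, a regulator of small GTPases, was at 23.8 FPKM at 4 dpi, against 12.5 FPKM at 12 hpi and 81.2 FPKM in uninjured retina (ratio 0.93). In the other direction, *MAP4 (1 to many)*, a microtubule-associated gene, was at 3.29 FPKM at 4 dpi, against 7.54 FPKM at 12 hpi and 30.1 FPKM in uninjured retina (ratio -1.17, combined SE 1.07). *gal3st3*, a sulfotransferase gene, was at 0.398 FPKM at 4 dpi, against 1.41 FPKM at 12 hpi and 6.04 FPKM in uninjured retina (ratio -1.60, combined SE 1.23). *clic6*, *MAP4 (1 to many)* and *gal3st3* were the 3 genes of the group past 2-fold.

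The calcium channel subunit genes *cacna2d2a* and *CACNA2D2 (1 to many)* had alike ratios of -0.63 and -0.66. *cacna2d2a* was at 7.76 FPKM at 4 dpi, against 12.1 FPKM at 12 hpi and 36.3 FPKM in uninjured retina. *CACNA2D2 (1 to many)* was at 3.36 FPKM at 4 dpi, against 5.37 FPKM at 12 hpi and 18.6 FPKM in uninjured retina. Their loci lie 9.36 kb apart on chromosome 6, so they may be parts of 1 gene in this annotation and are not independent readings. *RYR2*, a gene for a calcium release channel, was at 4.61 FPKM at 4 dpi, against 6.17 FPKM at 12 hpi and 24.4 FPKM in uninjured retina (ratio -0.41).

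**Figure D3:**
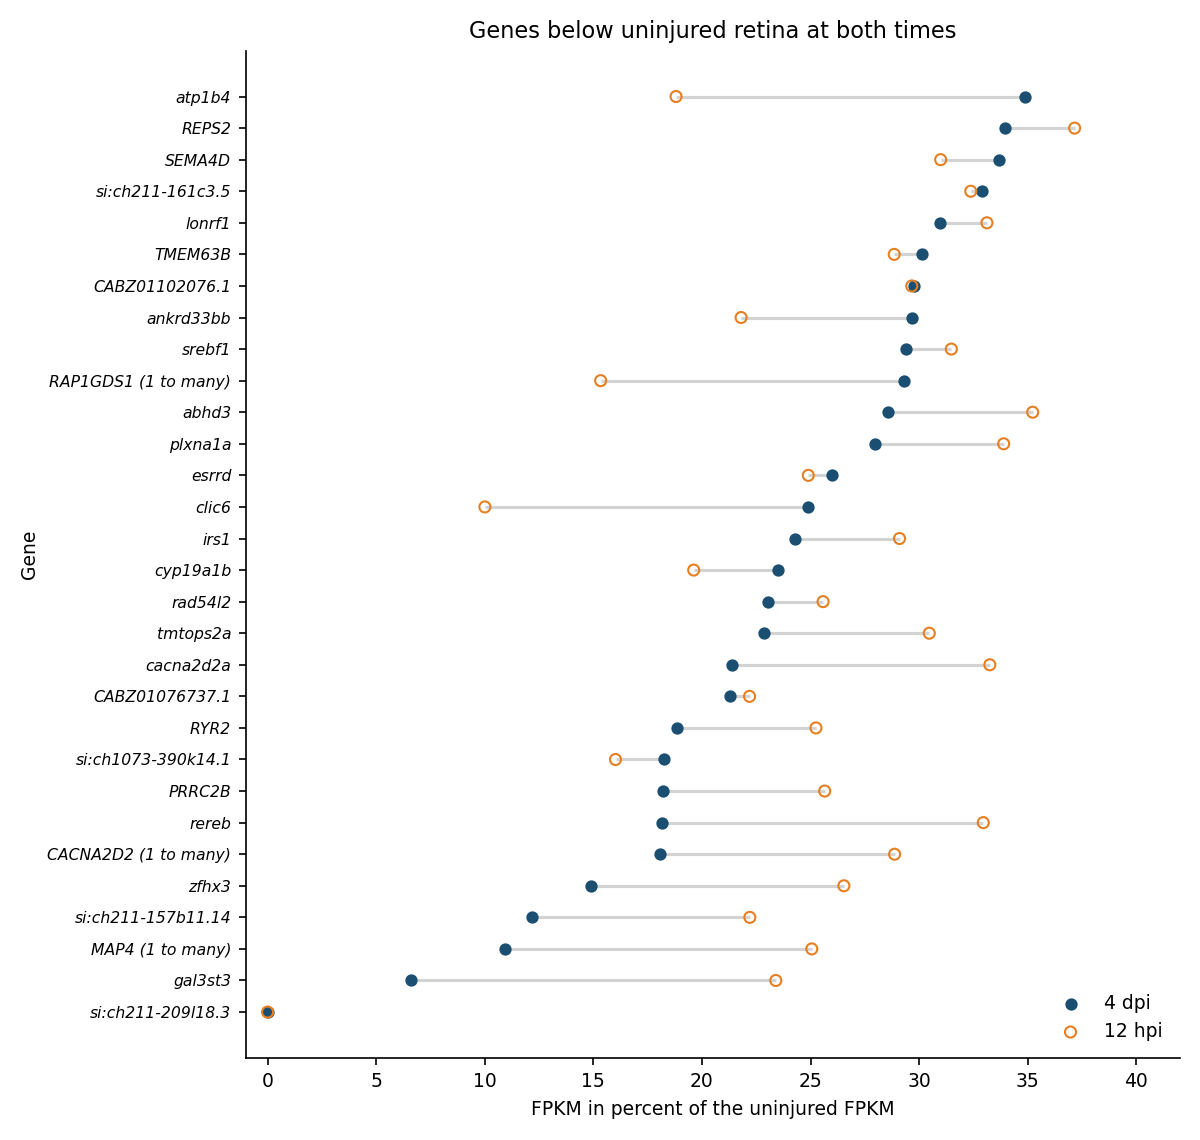
FPKM in percent of the uninjured FPKM (x axis) for the 30 genes below uninjured retina at both times, with filled points for 4 dpi and open points for 12 hpi. The points of a gene lie close together for most genes, with medians of 23.9% at 4 dpi and 26.1% at 12 hpi, and no gene is above 37.2%. The genes were selected as below uninjured retina at both times, which keeps both points low.

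A single gene was on opposite sides of uninjured retina at the 2 times. *CABZ01111555.1* was at 5.26 FPKM at 4 dpi, against 97.3 FPKM at 12 hpi and 19.9 FPKM in uninjured retina (ratio -4.18, combined SE 1.2). With VPA it was at 4.01 FPKM. Its locus covers 1039 bases near the start of chromosome 17, from 40684 to 41722, on the plus strand, and the files call it a protein-coding gene with an uncharacterized protein.

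Long non-coding RNAs made up 4 of the 94 genes. *si:dkey-119g10.3* was at 10.5 FPKM at 4 dpi, against 1.32 FPKM at 12 hpi, and was listed at 0 in uninjured retina (ratio 2.91). Its value with VPA was 1.79 FPKM, close to that at 12 hpi. Only 11.5 kb away on chromosome 22, *si:dkey-6n3.3* was at 79.5 FPKM at 4 dpi, against 67.4 FPKM at 12 hpi and 0 in uninjured retina (ratio 0.24), and at 71.8 FPKM with VPA. The neighbours therefore shared an uninjured value of 0 but not the ratio between times. The other 2, *si:ch211-217n8.6* and *si:ch211-264g8.3*, had ratios of -0.45 and -1.01.

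Crystallins, the structural proteins of the lens, had ratios below 0 in 7 of 7 matched genes, beside 52.1% of all matched genes. Of the 7, 5 were past 2-fold lower, beside 17% of all matched genes. When ratios were centred on the median of all matched genes, 3 of the 7 were past 2-fold lower, as *crybb3* and *cryba4* then lay just inside. *cryaa*, the small heat shock protein of the lens, was at 11.3 FPKM at 4 dpi, against 50.0 FPKM at 12 hpi, and was listed at 0 in uninjured retina (ratio -2.14). *crygm2c* was at 2.4 FPKM at 4 dpi, against 13.6 FPKM at 12 hpi (ratio -2.46), and *crygm2b* was at 5.42 FPKM at 4 dpi, against 14.1 FPKM at 12 hpi (ratio -1.36). These paralogs lie 45.4 kb apart on chromosome 9 and share much sequence, so reads could move between them. *crybb3*, the most abundant, was at 58.8 FPKM at 4 dpi, against 120.5 FPKM at 12 hpi and 1.34 FPKM in uninjured retina (ratio -1.03). *cryba4* was at 19.7 FPKM at 4 dpi, against 40.8 FPKM at 12 hpi and 1.97 FPKM in uninjured retina (ratio -1.05). *crygn1* and *crybgx* were nearer to level, with ratios of -0.33 and -0.37. Lens list genes with several transcripts, compared as described under the other observations, went both ways. Their 12 hpi value adds up only the listed transcripts, so it can miss part of a gene and make the ratio too high. All those named next except *crygs2* were at 0 in uninjured retina, where equal uninjured values cannot show that the listed transcripts are complete. *crygm3*, *crygm7* and *crygs4* had ratios of -1.62, -0.70 and -2.37. *crygs2*, *lim2.1*, *lim2.4* and *pitx3* had ratios of 0.17, 0.12, 0.27 and 0.67. The sum over the 7 genes was 120 FPKM at 4 dpi, against 268 FPKM at 12 hpi and 3.30 FPKM in uninjured retina, and it was 437 FPKM with VPA. Whether lens tissue carried along at dissection had a part in these values was not tested. Without the lens list, 7 genes were past 2-fold higher and 11 past 2-fold lower of 87, and the median ratio was 0.01.

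The VPA group gave a further reading at 4 days. It listed 86 of the 94 genes as a single transcript, and all 86 were on the same side of uninjured retina as at 4 dpi without drug. All these comparisons share the uninjured group. Among the 7 genes past 2-fold higher at 4 dpi than at 12 hpi, the VPA value was nearer to 4 dpi in 5 and nearer to 12 hpi in 2, on the log2 scale. Among the 15 listed genes past 2-fold lower, it was nearer to 4 dpi in 6 and nearer to 12 hpi in 9. Of these 9 genes, 5 were crystallins. Nearer to 12 hpi does not mean between the 2 times, since a VPA value above both also counts. *crybb3* was at 198 FPKM with VPA, against 58.8 FPKM at 4 dpi and 120.5 FPKM at 12 hpi. *cryaa*, at 41.8 FPKM with VPA, lay between its 2 values. *atf3* was among the 6 nearer to 4 dpi, at 24.2 FPKM with VPA, close to the 26.6 FPKM at 4 dpi. The same counts were not taken over all 86 genes, so these counts show nothing particular to the genes past 2-fold.

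Genes listed at 1 time only were counted separately. Of 826 single-transcript genes in all, 540 were listed only at 4 dpi (65.4%), 192 only at 12 hpi (23.2%) and 94 at both (11.4%). The 4 dpi group held 345 genes above and 195 below uninjured retina, and the 12 hpi group held 136 above and 56 below. A gene absent from a table either missed the authors' filter or was not measured, so absence does not show that its level was that of uninjured retina. The VPA tables listed 50.0% of the genes found only at 4 dpi and 21.4% of those found only at 12 hpi. To be listed took an unadjusted p-value of at most 0.05 in the authors' deposited table. That table marked as significant, at 4 dpi, 28 of the 634 single-transcript genes (4.42%), 10 of them among the 94 matched genes. At 12 hpi the authors' deposited table marked 0 of the 94 matched genes, and their lowest q-value was 0.0717.

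Single-transcript genes of cell division, protein synthesis and neural progenitors were listed at 4 dpi only. Their counts stand beside 65.4% of all listed single-transcript genes at 4 dpi only and 23.2% at 12 hpi only. On the cell cycle list all 16 listed genes were above uninjured retina at 4 dpi and 0 were listed at 12 hpi. The proliferation marker *mki67* was at 23.6 FPKM at 4 dpi, against 0.339 FPKM in uninjured retina, and *mcm5*, a part of the helicase that opens DNA for copying, was at 16.1 FPKM, against 0.448 FPKM in uninjured retina. The same held for 17 of 17 cytosolic ribosomal protein genes, such as *rps23* at 443 FPKM at 4 dpi, against 78.6 FPKM in uninjured retina. All 6 listed single-transcript genes of regeneration and reprogramming were also at 4 dpi only and above uninjured retina. Among them were *sox11b*, *olig2* and *atoh7*, transcription factor genes of neural progenitors. *sox11b* was at 74.1 FPKM at 4 dpi, against 6.0 FPKM in uninjured retina, and *atoh7*, which ganglion cells need to form, was at 11.3 FPKM, against 1.15 FPKM in uninjured retina. The growth factor gene *hbegfa*, which has several transcripts and is not counted here, was above uninjured retina at both times.

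The immune and structural lists also held genes found at 4 dpi only. Of 14 listed genes on the macrophage and microglia list, 11 were at 4 dpi only, 3 at both times and 0 at 12 hpi only. The share at 4 dpi only was 78.6%, beside 65.4% of all listed genes. *fcer1gl*, an immune receptor chain gene, was at 58.3 FPKM at 4 dpi, against 5.81 FPKM in uninjured retina, and *c1qc*, the complement gene of microglia, was at 28.4 FPKM, against 1.69 FPKM in uninjured retina. Of 7 listed interferon genes, 6 were at 4 dpi only, among them *isg15* at 88.5 FPKM, against 5.49 FPKM in uninjured retina. The other one, *cd40*, was at 12 hpi only, at 31.4 FPKM, against 5.66 FPKM in uninjured retina. Of 11 axon genes, 7 were at 4 dpi only and 4 at both times, and the 63.6% at 4 dpi only is near the share of all listed genes. They included the tubulin genes *tubb5*, at 224 FPKM at 4 dpi, against 7.87 FPKM in uninjured retina, and *tuba1a*, at 263 FPKM, against 14.2 FPKM in uninjured retina. Of 13 matrix genes, 9 were at 4 dpi only, a share of 69.2% that is also near that of all listed genes. One was the protease gene *mmp14b* at 21.7 FPKM, against 0.869 FPKM in uninjured retina.

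Heat shock genes were listed at 12 hpi only more often than not. These chaperones hold damaged proteins in solution. On their list 5 of 8 genes were at 12 hpi only and 3 at 4 dpi only, all above uninjured retina, beside 23.2% and 65.4% of all listed genes at those times only. *hspb11* was at 87.3 FPKM at 12 hpi, against 1.07 FPKM in uninjured retina. *hsp70l* was at 61.5 FPKM at 12 hpi, against 4.58 FPKM in uninjured retina, and its partner gene *bag3* was at 37.7 FPKM, against 5.67 FPKM in uninjured retina. The other 2 at 12 hpi, *hspa5* and *hsp90b1*, encode chaperones of the endoplasmic reticulum. The 3 at 4 dpi were the folding genes *cct4*, *tcp1* and *calr3b*, of which *cct4* was at 85.1 FPKM, against 25.1 FPKM in uninjured retina.

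Other genes seen above uninjured retina only at 12 hpi included *cxcl18b*, a chemokine gene, at 108 FPKM, against 3.40 FPKM in uninjured retina. *f3a*, the tissue factor that starts clotting, was at 35.8 FPKM at 12 hpi, against 1.44 FPKM in uninjured retina. *faim2b*, a relative of an inhibitor of cell death, had the highest level of this group, at 1024 FPKM at 12 hpi, against 149 FPKM in uninjured retina. *gpx4b*, an enzyme that removes lipid peroxides, was at 369 FPKM at 12 hpi, against 98.2 FPKM in uninjured retina.

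Of 6 listed Müller glia genes, 3 were above uninjured retina at 4 dpi only, 2 were below it at 12 hpi only, and *fabp11a* was above it at both times. These are shares of 50% at 4 dpi only and 33.3% at 12 hpi only, beside 65.4% and 23.2% of all listed genes. *gfap*, the intermediate filament gene of reactive glia, was at 84.5 FPKM at 4 dpi, against 10.2 FPKM in uninjured retina, and *vim* and *icn* were the other 2 found only at 4 dpi. Membership of the list does not show that the RNA of *vim* or *icn* came from Müller glia. At 12 hpi only, the water channel gene *aqp4* was at 12.5 FPKM, against 40.2 FPKM in uninjured retina, and the carbonic anhydrase gene *ca2* was at 60.1 FPKM, against 191 FPKM in uninjured retina.

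The few listed synaptic genes were mostly below uninjured retina at 4 dpi. On the synaptic list 4 of 5 genes were below and 1 above, all at 4 dpi only. Over all listed single-transcript genes, 65.4% were at 4 dpi only, and 195 of these 540 were below uninjured retina. *slc17a7a*, which loads glutamate into synaptic vesicles, was at 35.8 FPKM at 4 dpi, against 107 FPKM in uninjured retina. Activity genes were lower too. *egr1* was at 7.68 FPKM at 4 dpi, against 37.8 FPKM in uninjured retina, and *npas4a* was at 0.610 FPKM, against 5.30 FPKM in uninjured retina. The photoreceptor gene *guca1d* was at 48.4 FPKM at 4 dpi, against 165 FPKM in uninjured retina, whereas its relative *guca1a* was listed above uninjured retina at 12 hpi only, at 217 FPKM, against 60.4 FPKM. Both encode activators of the guanylate cyclase of photoreceptors, so the uninjured tissue, labelled as retina, held transcripts of photoreceptor genes. Of 4 listed genes on the photoreceptor list, 1 was at 4 dpi only (25%) and 2 at 12 hpi only (50%), beside 65.4% and 23.2% of all listed genes. At 12 hpi only, 1 was above and 1 below uninjured retina. *guca1e*, which has several transcripts and is not counted here, was at 13.6 FPKM at 4 dpi, against 7.07 FPKM at 12 hpi and 77.0 FPKM in uninjured retina.

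Clock genes were listed at different times. At 4 dpi only, *hlfa*, *bhlhe41* and *cry-dash* were below uninjured retina, with *hlfa* at 42.4 FPKM, against 186.7 FPKM in uninjured retina. At 12 hpi only, *rorca* was at 25.9 FPKM, against 157 FPKM in uninjured retina, *npas2* was also below, and *nr1d4a* and *nfil3* were above. *nr1d4a* was at 18.1 FPKM at 12 hpi, against 1.28 FPKM in uninjured retina. Since the hour of collection is not given, time after injury and time of day cannot be told apart for these genes or for *aanat2*.

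**Figure D4:**
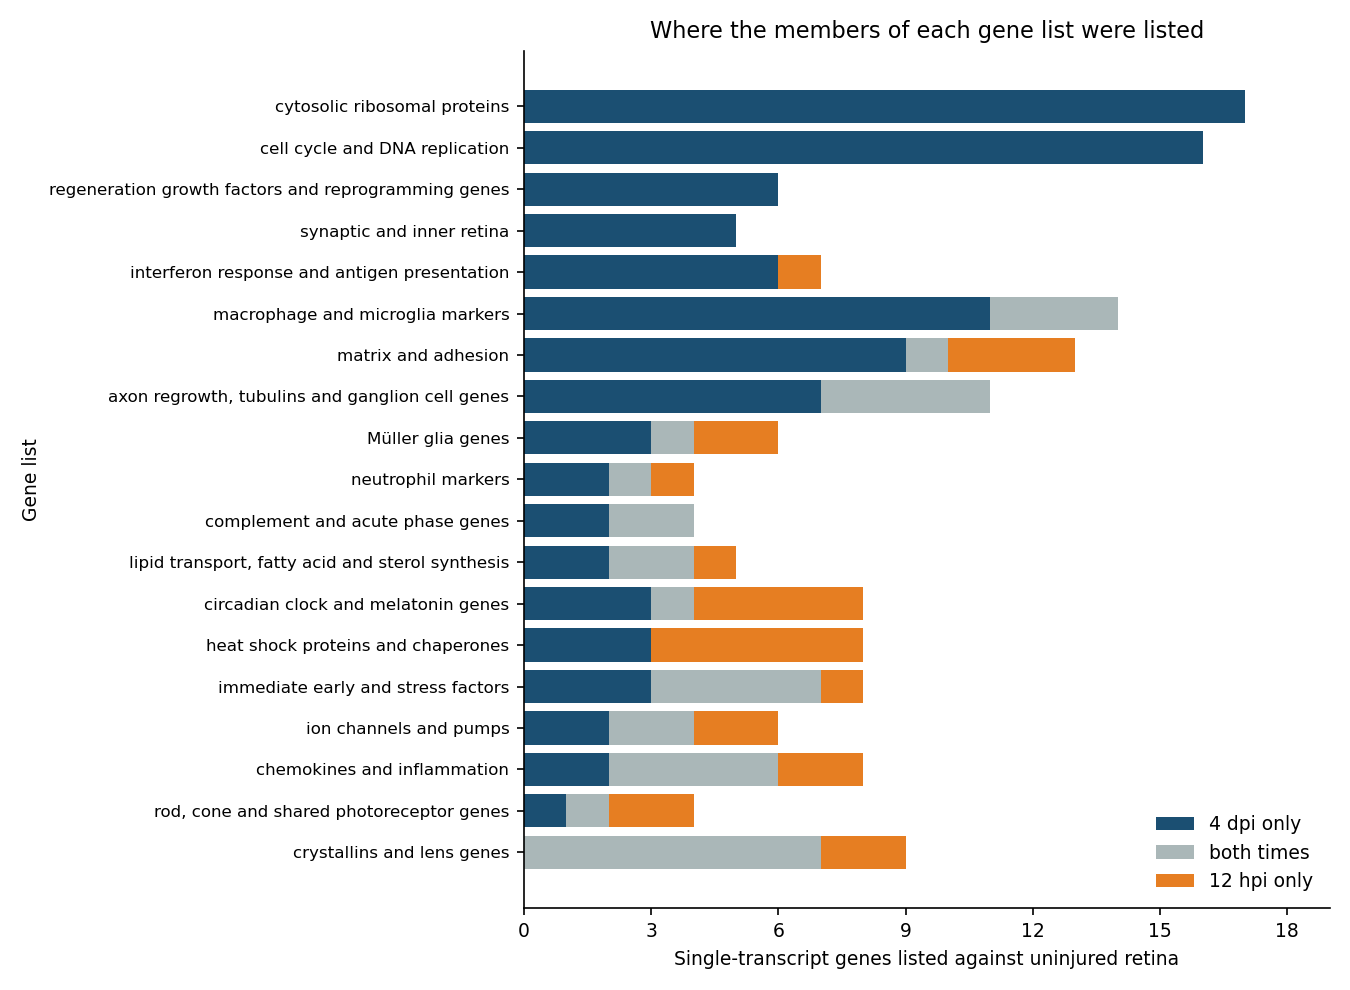
Number of single-transcript genes listed against uninjured retina (x axis) for each gene list with at least 4 listed members, split into 4 dpi only, both times and 12 hpi only. Cell cycle and ribosomal protein genes appear at 4 dpi only (16 and 17 genes), heat shock genes mainly at 12 hpi only (5 of 8), and genes of the crystallin and lens list mainly at both times (7 of 9). Over all listed single-transcript genes, 65.4% were at 4 dpi only, 23.2% at 12 hpi only and 11.4% at both times.

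The genes with the largest differences from uninjured retina at 1 time were partly uncharacterized. At 4 dpi the pseudogene *CABZ01045617.1* was at 0.938 FPKM, against 96.2 FPKM in uninjured retina, and *SLC45A4 (1 to many)*, a transporter gene, was at 9.47 FPKM, against 118 FPKM in uninjured retina. *esrrgb*, an estrogen-related receptor gene like *esrrd*, was at 6.21 FPKM at 4 dpi, against 64.8 FPKM in uninjured retina. At 12 hpi the Notch target gene *hey1* was at 1.01 FPKM, against 7.10 FPKM in uninjured retina. The highest values in FPKM at 4 dpi belonged to short structural RNAs, *Metazoa_SRP* and *U3*, and at 12 hpi the microRNA gene *dre-let-7g-1* was listed at 0, against 688 FPKM in uninjured retina. FPKM of RNAs this short is sensitive to fragment size selection, and they are not interpreted here.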

How the data were processed

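Whole-retina RNA was sequenced in 4 groups with 1 sample each. The submitters' processing notes name the build GRCz10 and the tools Cufflinks 2.2.1, TopHat2 2.1.0 and Bowtie2 2.2.2. The authors deposited FPKM per group, the log2 fold change against uninjured retina, a test statistic (used here as a score), and p-values and q-values, per the file headers, in 6 tables, of which 4 carry this comparison. The deposited rows all had p of at most 0.05 and at least 1.005 FPKM in the higher group. No column of another sample was used. Starts were counted from 0 in the files, since 3 rows had a start of 0, and were raised by 1; a locus can include overlapping genes.

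Rows were matched by gene ID where 1 transcript was annotated, and ratios, medians and counts were computed in Python 3.11.15 with pandas 2.3.3 and numpy 2.4.6, after the calculation was tested on simulated data. No test was run. Members, the 27 gene lists and the naming rule were chosen with earlier results of these data known. Named were the 12 highest and 12 lowest ratios with at least 5 FPKM at the higher time, the 6 nearest to 0 with at least 5 FPKM at both times, genes with opposite directions, up to 8 matched members per list, and, among genes listed at 1 time only, the 6 largest folds, the 3 highest levels and up to 3 members per list. Other names were chosen after their values were seen. Alternatives were pseudocounts of 1 and 0.01 and none, centring, filters on low values, p of at most 0.01, and matching of genes with several transcripts. A planned search of promoter motifs was not run.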

Additional observations from a re-analysis of the deposited data

Results flagged for a closer look

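*CABZ01111555.1* was singled out because it lay on opposite sides of uninjured retina at the 2 times. It was at 5.26 FPKM at 4 dpi, against 97.3 FPKM at 12 hpi and 19.9 FPKM in uninjured retina, with a log2 ratio of -4.18. The difference was not tested, as there is 1 value per group.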

How the results depend on the processing

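No paired analysis was possible because the tables hold 1 value per group, and leaving out a replicate could not be done for the same reason. Of 245 values recomputed under alternatives, 234 stayed within the spread or within 1.5 times the reported count, and no ratio past 2-fold changed sign. All 192 recomputed ratios of 48 named genes were among the 234. For a named gene the spread was its combined SE, or the median of 1.2 log2 units where it had none. Medians over genes were also judged against 1.2 log2 units, which is an error of single genes. Centring or another pseudocount moves a ratio little beside this spread. The outcome for the named genes and for the medians was thus nearly fixed in advance and does not show that these values are stable. The 11 values that moved were all counts of genes. The count of genes past 2-fold higher at 4 dpi, 7 as reported, was 11 after centring on the median and 20 of 186 when all genes were matched by gene ID. The count past 2-fold lower, 16 as reported, was 10 with a pseudocount of 1, 27 of 186 with all genes matched by gene ID, and 25 of 132 with genes of equal uninjured FPKM. At p of at most 0.01 at both times, 26 genes were above and 3 below uninjured retina at both times. At p of at most 0.01, genes listed only at 4 dpi were 148 above and 38 below, and genes listed only at 12 hpi were 47 above and 8 below. The median ratio, -0.06 as reported, ranged from -0.08 to 0.07, and was above 0 with all genes matched by gene ID (0.07) and without the lens list (0.01). Centring moved the ratios of *gna12a* and *steap4* from just below to just above 0. Leaving out the lens list was added after seeing the data. Depth is unknown, so no counting error can be given, and the low FPKM values are the least certain.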

Other observations

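Genes with several annotated transcripts were left out above because their 4 dpi value is per gene and their 12 hpi value per transcript. For 38 of them, the uninjured FPKM of the listed transcripts added up to that of the gene within 1%, so that the listed transcripts hold nearly all of the gene's uninjured signal, where there is any. This uninjured signal was above 0 for 25 of the 38, and for the others the match could not fail. The 12 hpi value adds up only the transcripts listed at that time. It can therefore miss part of a gene, which would make the ratio too high. The genes named here were chosen after their values were seen. *socs3b*, an inhibitor of cytokine signalling, was at 28.8 FPKM at 4 dpi, against 87.4 FPKM at 12 hpi (ratio -1.60). *jun*, the partner of *junbb* in AP-1, was at 90.9 FPKM at 4 dpi, against 147 FPKM at 12 hpi (ratio -0.69). *hbegfa*, a growth factor gene, was at 4.23 FPKM at 4 dpi, against 8.33 FPKM at 12 hpi (ratio -0.96), and *crlf1a*, a cytokine receptor-like factor gene, was at 29.3 FPKM at 4 dpi, against 43.6 FPKM at 12 hpi (ratio -0.57). The chemokine gene *ccl34a.4* was at 14.6 FPKM at 4 dpi, against 58.2 FPKM at 12 hpi (ratio -1.99), the opposite order to *ccl34b.8*. *mmp9*, a matrix protease gene, was at 85.7 FPKM at 4 dpi, against 47.8 FPKM at 12 hpi (ratio 0.84), and *rac2*, a GTPase gene of white blood cells, was at 10.6 FPKM at 4 dpi, against 7.38 FPKM at 12 hpi (ratio 0.51). Of the 38 genes, 3 were past 2-fold higher and 9 past 2-fold lower at 4 dpi.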
